A study of Mus musculus with 32 samples.

Results

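The genes described here encode the subunits of the mitochondrial respiratory chain and of ATP synthase. They were chosen by symbol among the protein-coding genes counted. The set holds the Nduf genes, all assigned to complex I by symbol, Ndufa4 included, and Sdha to Sdhd of complex II. It also holds the Uqcr genes and Cyc1 of complex III, the Cox4 to Cox8 genes of complex IV and the Atp5 genes of ATP synthase (complex V). The mitochondrial mt-Nd, mt-Cytb, mt-Co and mt-Atp genes complete it. The choice was made by symbol and used no measured value, but earlier results of these data were known when it was made. It gave 96 of 41388 genes, of which 83 are nuclear and 13 lie on the mitochondrial chromosome. Ndufa4l2, whose product can stand in for a subunit, was left out of the set and is given with the related genes. Ndufab1, which the symbol pattern did not match, is counted with those related genes too.

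Complexes I to IV pass electrons from NADH and succinate to oxygen and pump protons across the inner mitochondrial membrane, and ATP synthase lets the protons back to make ATP. Complexes I, III, IV and V are each built from subunits of both genomes, so that the nuclear and the mitochondrial genes have to be expressed together, whereas complex II is wholly nuclear and is also the succinate dehydrogenase of the citrate cycle. Cartilage lies in low oxygen, and chondrocytes are known to make much of their ATP by glycolysis.

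The study asked how IL-1β, a pro-inflammatory cytokine, and lactate dehydrogenase A bear on the metabolism of chondrocytes, the cells of cartilage. RNA of primary sternal chondrocytes of newborn C57BL/6 mice, unpassaged and kept in normoxia, was sequenced after removal of ribosomal RNA in 32 libraries, 2 in each of 16 groups. Wild-type cells were left untreated or were given FX11 (an LDHA inhibitor, 40 µM), IL-1β (10 ng/mL) or both for 24 hours. Cells of LDHA flox, NAMPT flox and NFKBIZ flox mice (Ldha fl/fl, Nampt fl/fl and Nfkbiz fl/fl) received an adenovirus carrying GFP or Cre for 24 hours and were then kept with or without IL-1β for another 24 hours. Nampt encodes the enzyme that salvages NAD and Nfkbiz encodes IκB-ζ, a regulator of NF-κB targets. Every floxed library thus carries a virus, and no wild-type library does. Because no wild-type culture received Cre, deletion of the floxed gene and the Cre virus itself cannot be told apart. Nothing in the sources used here says that the 2 libraries of a group came from separate cultures or animals, so that p-values may measure only a technical spread.

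Each library held between 15830658 and 39959888 counted reads. Levels are CPM, counts set against the total of their library and scaled by TMM over the 32 libraries, or CPM per kilobase of exon (RPKM) where genes are compared with each other. A gene was called at an adjusted p of 0.05 or less in edgeR's quasi-likelihood test with Benjamini-Hochberg adjustment over all genes tested, and fold changes are log2 with standard errors. The summed level of 11 chondrocyte markers ranged from 13920 to 99980 CPM that of 8 fibroblast and perichondrium markers from 1189 to 10430 CPM and that of 10 skeletal muscle markers from 13.5 to 319 CPM. The chondrocyte sum was above each of the others in every library. The floxed gene was lower with Cre than with GFP in each line (Ldha 72.9 to 118 CPM against 869 to 1557, Nampt 4.63 to 6.86 against 54.6 to 68.4). Nfkbiz stood at 8.28 to 9.65 CPM with Cre against 16.0 to 17.0 with GFP, and under IL-1β at 29.5 to 32.3 against 229 to 235. A few libraries stood apart. In the library of NFKBIZ flox Cre cells with IL-1β, replicate 2, the 13 mitochondrial genes took 0.525% of counts against 1.38 to 2.16% in the other 31 libraries, and the non-coding RNA Gm26917 took 11.9% against 5.13 to 9.36%. In the wild-type set, the library labelled FX11 replicate 2 held 2016 CPM of Mmp3, a matrix metalloproteinase gene induced by IL-1β, and the library labelled IL-1β replicate 2 held 0.784 CPM, both against their labels. For the main results that rest on these libraries, values without them are given too.

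**Figure D1:**
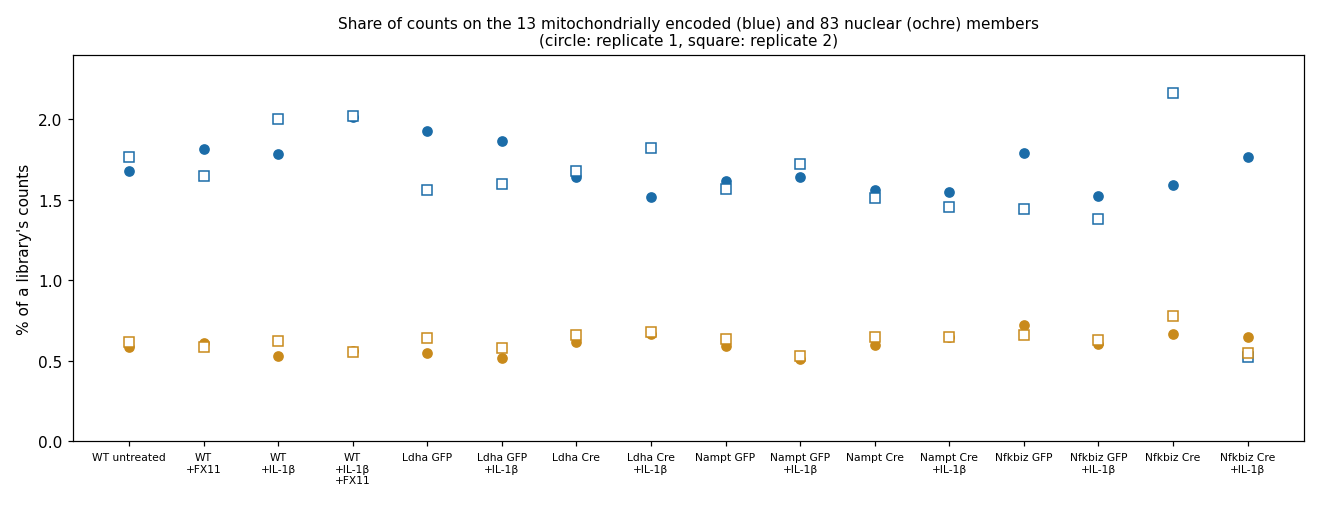
Share of each library's counts (y axis, percent) on the 13 mitochondrial genes (blue) and on the 83 nuclear genes (ochre) in the 16 groups (x axis), with a circle for replicate 1 and a square for replicate 2. The nuclear share lay between 0.513 and 0.78% everywhere, and the mitochondrial share of NFKBIZ flox Cre with IL-1β replicate 2 (0.525%) lay below that of every other library.

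In these cells the most abundant genes of the set per length were mitochondrial. Mean levels over the 32 libraries were 3390 RPKM for mt-Co1 and 3352 RPKM for mt-Cytb, the catalytic core of complex IV and the cytochrome b of complex III, and 2682 RPKM for mt-Nd1 of complex I. Mt-Co2 (113 RPKM), mt-Co3 (66.9 RPKM), mt-Atp6 (82.7 RPKM) and mt-Nd3 (30.9 RPKM) were far lower. These low values are uncertain, because only uniquely aligned reads were counted and the nuclear genome holds near-identical copies of parts of the mitochondrial one. The highest nuclear genes were Cox6a1 (393 RPKM) and Cox8a (311 RPKM) of complex IV and Atp5l (216 RPKM) of ATP synthase. In complex II the iron-sulphur subunit Sdhb stood at 40.2 RPKM, the membrane anchor Sdhd at 36.1, the flavoprotein Sdha at 33.8 and the second anchor Sdhc at 18.6 RPKM.

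Subunits that exist in alternative forms were expressed mostly as the common form. Per length, Cox4i1 (78.2 RPKM) was above Cox4i2 (13.0 RPKM), the form of subunit IV known from lung, and Cox6b1 (153 RPKM) above Cox6b2 (6.63 RPKM), known from testis. Cox6a2, the form of heart and skeletal muscle, stood at 27.0 RPKM against 393 for Cox6a1. Cox7a1 (2.14 RPKM) and Cox8b (0.59 RPKM), also muscle forms, were far below Cox7a2 (66.7 RPKM) and Cox8a, and Cox7b2 and Cox8c were at 0.0128 and 0.0069 RPKM. The c subunit of the ATP synthase rotor is encoded by a trio of genes, and Atp5g3 (77.8 RPKM) was above Atp5g2 (55.8 RPKM) and Atp5g1 (24.2 RPKM). Cox7a1, Cox7b2, Cox8b and Cox8c did not reach 1 CPM in enough libraries of the GFP comparison and were not tested there, leaving 92 of the 96 genes.

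Sdhb, Uqcrc1 and Atp5g1 are shown with their promoters, since the effect of IL-1β on them differed between GFP and Cre cells in both the LDHA flox and the NAMPT flox line. Sdhb (chromosome 4, 140961203 to 140979193, plus strand) encodes the subunit that carries electrons from succinate toward ubiquinone. Uqcrc1 (chromosome 9, 108936633 to 108949623, plus strand) encodes a core protein of complex III. Atp5g1 (chromosome 11, 96068852 to 96075670, minus strand) encodes 1 of the c subunit precursors. Positions are those of GRCm38. The windows below run from 250 bases before to 50 bases after the RefSeq transcription start in GRCm38.p6, at chr4:140961021-140961320 (plus), chr9:108936398-108936697 (plus) and chr11:96075582-96075881 (minus). Capitals mark the motifs found.
Sdhb: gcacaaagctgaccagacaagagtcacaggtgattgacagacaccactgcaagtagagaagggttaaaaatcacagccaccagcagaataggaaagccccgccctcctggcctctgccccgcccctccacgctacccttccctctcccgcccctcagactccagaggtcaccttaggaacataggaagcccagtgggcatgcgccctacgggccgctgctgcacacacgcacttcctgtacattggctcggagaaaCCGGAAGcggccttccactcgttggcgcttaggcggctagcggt
Uqcrc1: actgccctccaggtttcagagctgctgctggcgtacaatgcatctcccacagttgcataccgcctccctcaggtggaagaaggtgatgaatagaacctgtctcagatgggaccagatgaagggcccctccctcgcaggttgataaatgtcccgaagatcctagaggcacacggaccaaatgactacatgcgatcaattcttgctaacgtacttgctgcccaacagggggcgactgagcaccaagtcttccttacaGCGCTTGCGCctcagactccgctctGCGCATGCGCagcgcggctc
Atp5g1: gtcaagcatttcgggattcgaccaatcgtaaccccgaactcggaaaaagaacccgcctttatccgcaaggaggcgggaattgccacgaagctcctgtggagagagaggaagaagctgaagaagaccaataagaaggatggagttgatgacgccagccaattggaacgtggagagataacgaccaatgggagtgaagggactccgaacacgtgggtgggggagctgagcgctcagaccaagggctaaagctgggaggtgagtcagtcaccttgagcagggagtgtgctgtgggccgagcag

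Motifs of regulators known for respiratory genes were searched on both strands: GCGCA and GCGC 1 base apart for NRF1, CCGGAAG for ETS factors such as GABP, AAGATGGC for YY1 and TNAAGGTCA for the estrogen-related receptor ERRα. No motif contains another. Of the 83 nuclear genes 67 had a window, 2 of them found through a synonym. The NRF1 motif lay in the windows of 17 genes (25.4%, against 5.19% of 27025 genes), the ETS motif in 16 (23.9% against 9.93%), the YY1 motif in 10 (14.9% against 3.19%) and the ERRα motif in 3 (4.5% against 1.43%). At least 1 motif was found for 37 genes. Sdhb held the ETS motif once and Uqcrc1 the NRF1 motif at 2 places, all past the transcription start, and none of the 4 motifs was found for Atp5g1. A match describes the letters and not a site in use.

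IL-1β lowered the expression of most nuclear subunit genes in the GFP cells. Over the 12 GFP libraries of the 3 floxed lines, 54 of 79 nuclear genes tested fell and none rose, while 28.3% of all 14283 genes tested fell and 28% rose. The median log2 fold change of the nuclear genes was -0.23 (range -0.82 to 0.12), that of all genes -0.01. The declines were small for most genes and reached every complex. In complex I 28 of 36 nuclear genes fell (median -0.26), in complex II 2 of 4, in complex III 6 of 9 (median -0.25), in complex IV 7 of 13 (median -0.15) and in ATP synthase 11 of 17 (median -0.22). In bulk RNA, fewer cells of a type and less RNA per cell cannot be told apart. The 11 chondrocyte markers all fell in the same comparison (median -1.53), with summed levels of 72150 to 94420 CPM without and 26540 to 33050 CPM with IL-1β, and their part in the decline of the subunit genes was not tested.

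**Figure D2:**
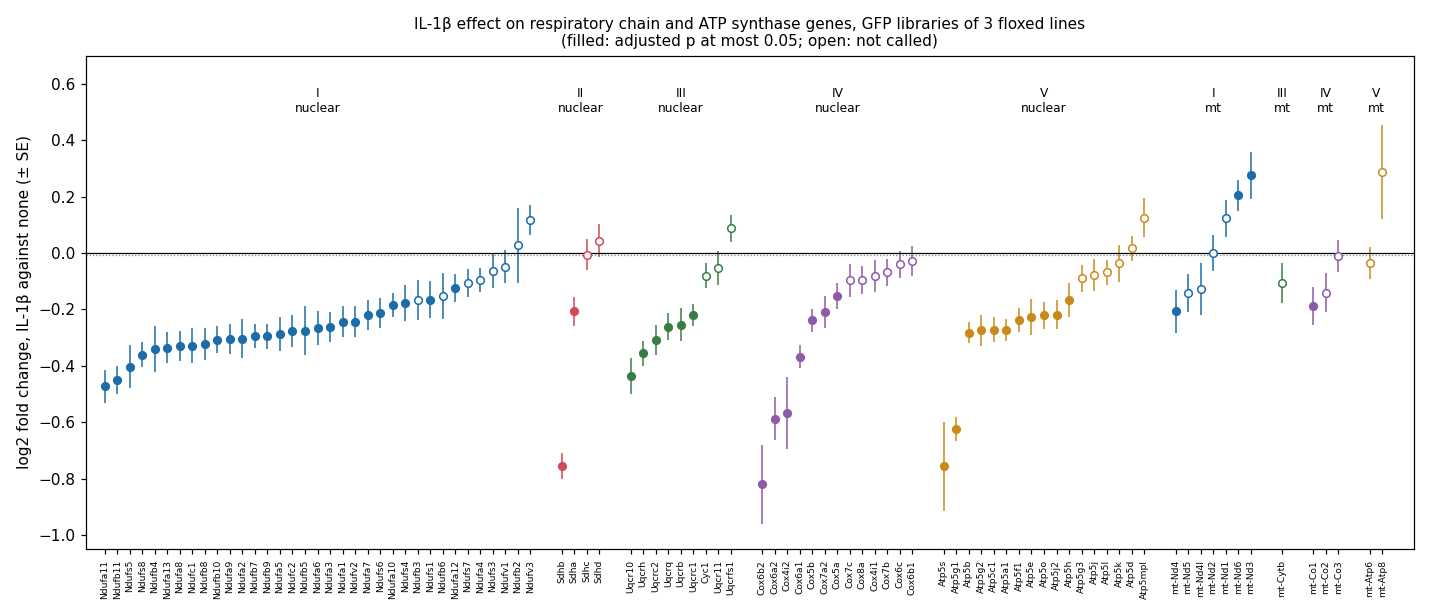
Log2 fold change with IL-1β (y axis, bars ± SE) of 91 of the 92 genes tested in the 12 GFP libraries of the floxed lines, ordered by complex and by nuclear or mitochondrial (mt) origin (x axis), where filled points passed an adjusted p of 0.05 and the dotted line is the median of all genes. All filled nuclear points lie below 0, from Cox6b2 (-0.82) upward, whereas the mitochondrial genes lie on both sides of it.

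Sdhb showed the decline with the smallest adjusted p. Without IL-1β it stood at 93.7 and 97.1 CPM in LDHA flox, 97.6 and 97.3 CPM in NAMPT flox and 124 and 113 CPM in NFKBIZ flox GFP cells. With IL-1β it stood at 60.6 and 62.0, 55.8 and 56.7, and 63.9 and 65.5 CPM in the same order. Every IL-1β library was below every untreated GFP library. The log2 fold change was -0.76 ± 0.05 (adjusted p = 2.9e-10, edgeR). The other subunits of complex II, which Sdhb shares with the citrate cycle, moved less: Sdha fell by 0.21 (SE 0.05, adjusted p = 0.00195), and Sdhc and Sdhd did not pass the test.

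Atp5g1 behaved in the same way. Its levels without IL-1β were 138 and 143, 143 and 142, and 147 and 141 CPM in LDHA, NAMPT and NFKBIZ flox GFP cells. With IL-1β they were 92.6 and 98.7, 83.6 and 83.4, and 97.0 and 95.8 CPM. The groups did not overlap in any line, and the log2 fold change was -0.62 ± 0.04 (adjusted p = 1.59e-09). Of the other c subunit genes, Atp5g2 fell by 0.27 (SE 0.06, adjusted p = 0.000443) and Atp5g3 did not pass the test. Atp5s, counted here with ATP synthase by its symbol, is now grouped with assembly proteins. It fell by 0.76 (SE 0.16, adjusted p = 0.000641) from 3.61 to 5.22 CPM to 1.73 to 3.41 CPM.

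The largest decline was that of an isoform. Cox6b2 (chromosome 7, 4751792 to 4753094, minus strand) stood at 3.44 and 5.17 CPM in LDHA flox, 5.99 and 7.88 in NAMPT flox and 8.95 and 10.2 CPM in NFKBIZ flox GFP cells without IL-1β. It stood at 2.35 and 4.28, 2.80 and 2.90, and 5.66 and 4.96 CPM with it. The groups overlapped in LDHA flox and were apart in the other lines (log2 fold change -0.82 ± 0.14, adjusted p = 9.83e-05). Cox4i2 (-0.57 ± 0.13, adjusted p = 0.00114) and Cox6a2 (-0.59 ± 0.08, adjusted p = 5.02e-06) fell as well, whereas the common forms Cox4i1 and Cox6b1 did not pass the test and Cox6a1 fell by 0.37 (SE 0.04, adjusted p = 8.14e-07). Cox6a2 is a muscle form and overlaps Itgad on the opposite strand, so that its counts are uncertain. The same holds for the others of the 24 genes of the set that overlap a gene on the opposite strand, Sdha, Cox4i1 and Uqcrh among them. Of 9 skeletal muscle markers tested 3 fell and 1 rose, with summed levels of 78.5 to 126 CPM without and 13.5 to 70.4 CPM with IL-1β, and their part in the decline of Cox6a2 was not tested.

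The mitochondrial genes did not share the decline. Of 13, 2 fell and 2 rose, with a median log2 fold change of -0.04. Mt-Nd3 stood at 11.0 and 11.0 CPM in LDHA flox, 9.61 and 12.4 in NAMPT flox and 10.6 and 10.1 CPM in NFKBIZ flox GFP cells, and with IL-1β at 12.3 and 11.4, 12.9 and 14.2, and 12.7 and 14.0 CPM. Both IL-1β libraries were above both untreated ones in each line (0.28 ± 0.08, adjusted p = 0.00973). Mt-Nd6, the only gene of the set on the light strand, rose by 0.20 (SE 0.05, adjusted p = 0.00403). It lies at 13552 to 14070 and overlaps mt-Nd5 (11742 to 13565) on the other strand only at its edge. The sources do not say whether counting used the strand, so that reads of the shared stretch may not be told apart. Mt-Nd4 (-0.21 ± 0.08, adjusted p = 0.0316) and mt-Co1 (-0.19 ± 0.07, adjusted p = 0.0243) fell. These 2 calls depended on single libraries, holding in 5 and in 6 of the 12 fits that each left out 1 library. The largest adjusted p, 0.135 for mt-Nd4 and 0.119 for mt-Co1, came from such fits, and the libraries whose absence ended both calls were LDHA flox GFP replicate 1, NFKBIZ flox GFP replicate 1, and with IL-1β NAMPT flox replicate 1, NFKBIZ flox replicate 2 and LDHA flox replicate 2. The call of mt-Nd4 also ended without LDHA flox GFP replicate 2 or NAMPT flox GFP replicate 1, and that of mt-Co1 without NAMPT flox GFP replicate 2.

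Library by library, 23 of the 79 nuclear genes had both IL-1β libraries below both untreated ones in each of the 3 lines, and none had them above. Over all genes tested this held for 19.9% in the lower and 19.2% in the higher direction. In each line by itself, the nuclear genes that fell numbered 15 of 79 in LDHA flox (13.3% of all genes fell and 14.5% rose; median of the nuclear genes -0.15, of all genes 0.00), 40 of 80 in NAMPT flox (17.3% fell and 17.7% rose; median -0.30 and 0.00) and 17 of 79 in NFKBIZ flox (11.7% fell and 15.2% rose; median -0.22 and 0.00), and no nuclear gene rose. With 1 library left out, the median of the nuclear genes ranged from -0.29 to -0.02 in LDHA flox, -0.34 to -0.22 in NAMPT flox and -0.27 to -0.15 in NFKBIZ flox. Mt-Nd1 rose in NAMPT flox (0.20 ± 0.06, adjusted p = 0.0283). The fits of a single line had no term for library set, the style of numbering in the sample titles. With the set as a block, the counts called in LDHA flox and NAMPT flox were higher for every comparison, as given at the end. The counts of a single line depended on single libraries, and leaving out 1 library leaves its group with 1 library that is assumed to vary like the others. In LDHA flox the count of genes called was 2 without GFP IL-1β replicate 1, 5 without GFP replicate 2 and 5 without GFP IL-1β replicate 2. In NAMPT flox the count, 41 with mt-Nd1, was 25 without GFP IL-1β replicate 1 and 24 without GFP replicate 2. In NFKBIZ flox it was 4 without GFP replicate 1, 3 without GFP IL-1β replicate 1, 8 without GFP replicate 2, 5 without GFP IL-1β replicate 2, and 32 without either of the Cre IL-1β libraries.

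The genes that assemble and serve the chain were followed in 5 further lists, to be read against the 28.3% of all genes that fell and the 28% that rose in the GFP comparison. There 6 of 15 assembly factors of complex I fell and 1 rose (median -0.10). Among them Nubpl, which inserts iron-sulphur clusters, fell by 0.85 and Ndufaf3 by 0.57, while Ndufaf2 rose by 0.37. Of 29 assembly factors of complexes II to V 9 fell, near the share of all genes, and 2 rose (median -0.13), with Cox14 at -0.41 and Cox10, a haem A enzyme, at -0.31. Of 18 electron carriers, transporters and related proteins 9 fell and 5 rose (median -0.07). Etfa and Etfb, which bring electrons from fatty acid oxidation, fell by 0.58 each, the ADP/ATP carrier gene Slc25a4 fell by 0.56, and Ndufa4l2, known to be induced in low oxygen, rose by 1.11. Of 76 mitochondrial ribosomal protein genes 24 fell, again near the share of all genes, and 3 rose (median -0.09), Mrpl2 by 0.56 among those that fell. Of 25 genes for copying and expressing mitochondrial DNA and for its nuclear regulators 5 rose and 1 fell (median 0.04), both below the share of all genes. Trmt10c, which serves mitochondrial tRNA processing, rose by 0.49, Mterf4 by 0.46, the coactivator Ppargc1b by 0.70 and the ETS factor gene Gabpa by 0.22.

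With Cre and no IL-1β, few subunit genes were called in the fits without a set term. The replicate block given at the end called more in LDHA flox and NAMPT flox. In LDHA flox 1 of 92 genes was called, at 5.52% of all genes. Cox6b2 rose from the levels given above to 10.5 and 11.9 CPM, both above every GFP library of the line (1.36 ± 0.27, adjusted p = 0.0184), and this call was lost without GFP replicate 1, Cre replicate 1 or Cre replicate 2. In NAMPT flox 6 of 93 genes changed, at 14.4% of all genes. Cox6b2 (1.01 ± 0.18, adjusted p = 0.00394, at 11.9 and 16.0 CPM) and Uqcrc1 (0.26 ± 0.07, adjusted p = 0.0239) rose, while Cox7c, Uqcrh, Sdhc and Atp5g1 fell. Of 8 fits that left out 1 library, the calls of Sdhc and Atp5g1 held in 0. Those of Uqcrc1 and Cox7c held in 6 and that of Cox6b2 in all 8. Leaving out single libraries gave 2 calls without GFP or Cre, replicate 1 or 2, and 3 without GFP IL-1β, replicate 1 or 2. In NFKBIZ flox no subunit gene was called by edgeR, DESeq2 or limma voom, 1 had an unadjusted p under 0.05, and 0.26% of all genes were called. Cox6b2 stood there at 13.4 and 11.9 CPM with Cre against 8.95 and 10.2 with GFP, without passing the test.

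Under IL-1β, more of the nuclear subunit genes were higher with Cre than lower in LDHA flox and NAMPT flox. In LDHA flox 13 of 79 nuclear genes were higher with Cre and 1 lower, against 16.9% and 17% of all genes (median 0.14, all genes -0.02), so that the share of higher calls was near the background, and the median was 0.01 without GFP IL-1β replicate 1. In NAMPT flox 29 of 80 were higher and 2 lower, against 25% and 23.4% (median 0.18, all genes -0.03). Cox6b2 had the largest difference in each, 1.78 ± 0.28 (adjusted p = 0.000896) and 2.05 ± 0.21 (adjusted p = 1.53e-05), at 11.0 and 10.9 CPM in LDHA flox and 10.9 and 12.5 CPM in NAMPT flox Cre cells. Sdhb was higher by 0.49 (SE 0.07, adjusted p = 0.000734) and by 0.69 (SE 0.08, adjusted p = 2.97e-05), and Uqcrc1 by 0.47 (SE 0.07, adjusted p = 0.000738) and by 0.75 (SE 0.07, adjusted p = 5.55e-06). Ndufb3 (chromosome 1, 58586384 to 58595964, plus strand), an accessory subunit of complex I, went the other way. It stood at 20.2 and 20.2 CPM with Cre against 27.7 and 31.2 with GFP in LDHA flox (-0.52 ± 0.10, adjusted p = 0.00333), and at 17.6 and 14.8 against 21.5 and 26.5 CPM in NAMPT flox (-0.54 ± 0.13, adjusted p = 0.00509). Without GFP IL-1β replicate 1 the counts were 7 in LDHA flox and 21 in NAMPT flox, and without Cre IL-1β replicate 1 they were 6 and 23, against 14 and 38 in full.

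In the same NAMPT flox cells 7 of 13 mitochondrial genes were lower with Cre under IL-1β and none was higher (median -0.22), where 23.4% of all genes were lower. Mt-Nd5 stood at 1577 and 1621 CPM with Cre and 2023 and 2258 CPM with GFP (-0.41 ± 0.06, adjusted p = 0.00029), and mt-Nd6 at 417 and 427 against 556 and 669 CPM (-0.52 ± 0.12, adjusted p = 0.00334). The groups did not overlap for either gene, which share a stretch of sequence on opposite strands. These 2 calls held in all 8 fits that left out 1 library. Mt-Nd1, mt-Nd2, mt-Nd4, mt-Cytb and mt-Co1 had log2 fold changes of -0.16 to -0.23, and these 5 calls rested on single libraries. That of mt-Nd1 held in 3 of 8 such fits and the other 4 in 5 of 8, with all 5 lost without replicate 2 of GFP IL-1β or of Cre IL-1β. The calls of mt-Nd2, mt-Nd4 and mt-Cytb were also lost without Cre IL-1β replicate 1, that of mt-Co1 without GFP IL-1β replicate 1, and that of mt-Nd1 without GFP replicate 1 or either Cre library kept without IL-1β. The fold change of mt-Nd4 ranged from -0.38 to -0.09 over these fits. In LDHA flox none of the 13 passed the test (median -0.08). Of the genes for copying and expressing mitochondrial DNA 11 of 25 were lower and 3 higher in NAMPT flox (median -0.35), and of the complex I assembly factors 7 of 15 were lower and 2 higher, against 23.4% and 25% of all genes. Of 76 mitochondrial ribosomal protein genes 19 were higher, the share of all genes, and 9 lower. Of the other lists, 5 of 30 assembly factors of complexes II to V were higher and 5 lower, and 8 of 18 carriers were higher and 4 lower.

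Other values moved with Cre in these lines. In LDHA flox and NAMPT flox the summed chondrocyte markers stood at 72150 to 73410 CPM with GFP and 50220 to 53080 CPM with Cre, and under IL-1β at 26540 to 27410 and 13920 to 15220 CPM. In NFKBIZ flox they stood at 83210 to 94420 and 72490 to 86180 CPM, and under IL-1β at 30750 to 33050 and 36990 to 39570 CPM. The summed endothelial markers, 4 genes, were at 3.27 to 4.26 CPM with GFP and 10.1 to 14.0 CPM with Cre in LDHA flox and NAMPT flox. Of these 4 genes, 1 was called higher with Cre in each line without IL-1β. Under IL-1β 1 was higher in LDHA flox, and 2 were higher and 1 lower in NAMPT flox. Under IL-1β all 8 fibroblast and perichondrium markers were lower with Cre in both lines (median -0.74 in LDHA flox and -0.85 in NAMPT flox), with summed levels of 4366 to 5017 CPM with GFP and 2537 to 3008 CPM with Cre. In NFKBIZ flox that sum was at 1244 to 1280 and 1189 to 1234 CPM. The part of these markers in the differences of the subunit genes was not tested.

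In Cre cells of LDHA flox and NAMPT flox, nuclear genes passed the test with IL-1β in both directions. These counts are from fits without a set term, and the replicate block given at the end called more genes. In LDHA flox 2 of 79 rose and 2 fell, against 19.5% and 16.3% of all genes (median -0.01, all genes 0.02). Atp5mpl, a small proteolipid of ATP synthase, rose from 19.5 and 18.9 to 27.7 and 25.7 CPM (0.51 ± 0.14, adjusted p = 0.0197), and Ndufb3 fell from 27.7 and 26.1 to 20.2 and 20.2 CPM (-0.38 ± 0.10, adjusted p = 0.0165). In NAMPT flox 4 of 80 rose and 3 fell, against 24.3% and 19.6% of all genes (median -0.04, all genes 0.03), Atp5mpl (0.38 ± 0.08, adjusted p = 0.00348) and Ndufb3 (-0.72 ± 0.12, adjusted p = 0.000731) among them, and mt-Nd5 fell by 0.30 (SE 0.06, adjusted p = 0.0025). The 4 calls in LDHA flox became 0 without Cre replicate 1, 1 without Cre replicate 2, 2 without Cre IL-1β replicate 1 and 1 without Cre IL-1β replicate 2, and the 8 in NAMPT flox became 5 without Cre IL-1β replicate 2.

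**Figure D3:**
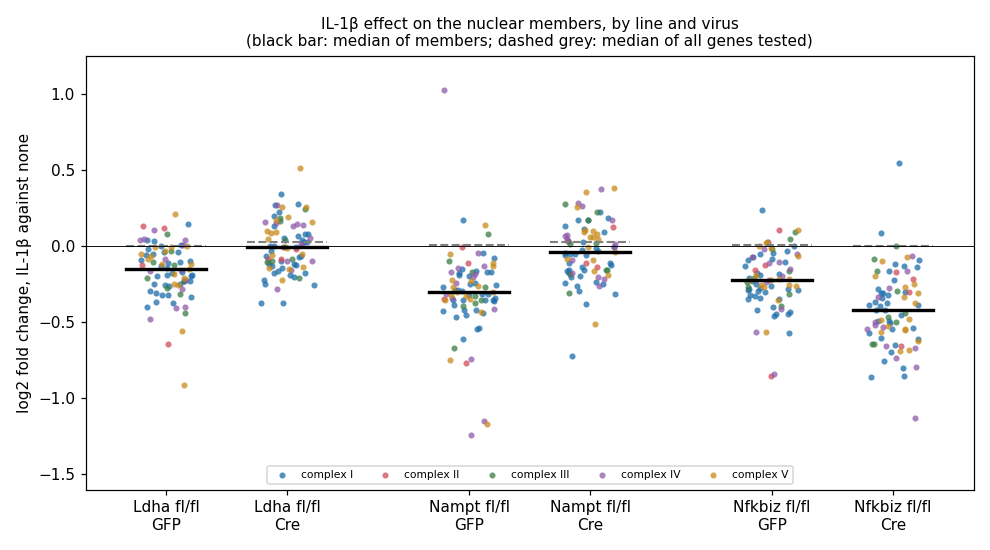
Log2 fold change with IL-1β (y axis) of each tested nuclear gene in the GFP and the Cre libraries of each floxed line (x axis), coloured by complex, with a black bar at the median of the nuclear genes and a dashed grey bar at that of all genes. The medians are -0.15, -0.30 and -0.22 in GFP cells of LDHA, NAMPT and NFKBIZ flox, and -0.01, -0.04 and -0.42 in Cre cells. Without NFKBIZ flox Cre IL-1β replicate 2 the median in NFKBIZ flox Cre cells was -0.28.

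The difference between the 2 IL-1β effects was tested as an interaction of virus and IL-1β. In LDHA flox it passed for 3 of 92 genes, all with a less negative effect in Cre cells, at 5.89% of all genes higher (median of the nuclear genes 0.18, all genes 0.00). With 1 library left out, the median of the nuclear genes ranged from -0.02 to 0.29. Sdhb was at 91.0 and 94.0 CPM without and 89.0 and 80.7 CPM with IL-1β in Cre cells, where GFP cells had dropped to 60.6 and 62.0 CPM (interaction 0.56 ± 0.11, adjusted p = 0.00835). Atp5g1 was at 133 and 139 CPM without and 134 and 122 CPM with IL-1β (0.51 ± 0.11, adjusted p = 0.0144), and Uqcrc1 at 127 and 131 and at 139 and 142 CPM (0.39 ± 0.10, adjusted p = 0.0355). Uqcrc1 in GFP cells stood at 116 and 125 CPM without and 99.8 and 106 CPM with IL-1β. Its levels thus moved in opposite directions in GFP and Cre cells, but the rise in Cre cells did not pass the test by itself. The calls held in 7, 5 and 1 of 8 fits that left out 1 library, and none of the set was called without GFP IL-1β replicate 1 and 1 without Cre replicate 1 or without Cre IL-1β replicate 1.

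In NAMPT flox the interaction passed for 16 of 93 genes, all nuclear and all less negative in Cre cells, at 12% of all genes higher (median of the nuclear genes 0.24, all genes 0.00). Sdhb stood in Cre cells at 89.2 and 91.6 CPM without and 95.5 and 83.3 CPM with IL-1β (0.80 ± 0.11, adjusted p = 0.000444). Atp5g1 stood at 122 and 127 CPM without and 120 and 120 CPM with it (0.74 ± 0.08, adjusted p = 0.000123), and Uqcrc1 at 129 and 138 and at 146 and 156 CPM (0.49 ± 0.09, adjusted p = 0.00401). The same was found for Cox4i2 (0.89 ± 0.20, adjusted p = 0.00995), which IL-1β lowered from 11.3 and 12.1 to 5.41 and 4.88 CPM in GFP cells and which stood at 9.82 and 9.75 CPM without and 7.23 and 8.59 CPM with IL-1β in Cre cells. These 4 calls held in all 8 fits that left out 1 library, while Cox6b2 (1.04 ± 0.28, adjusted p = 0.0231) and Cox6a2 (0.79 ± 0.21, adjusted p = 0.0237) held in 3. The count was 9 without GFP IL-1β replicate 1, 7 without Cre replicate 1, 8 without GFP replicate 2 and 8 without GFP IL-1β replicate 2. LDHA flox and NAMPT flox share no library with each other, but within a line the interaction rests on the libraries of the comparisons given above.

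**Figure D4:**
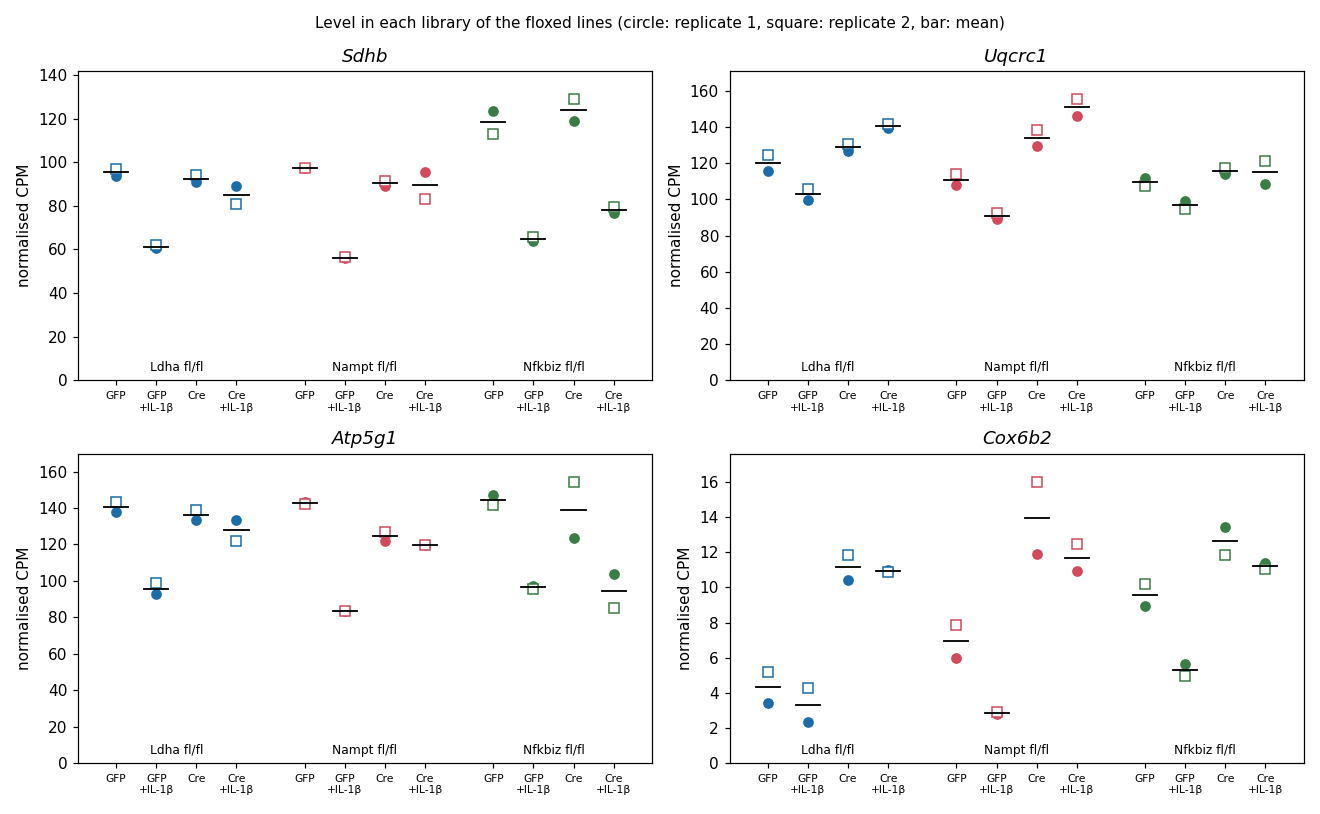
Level in CPM (y axes, from 0) of Sdhb, Uqcrc1, Atp5g1 and Cox6b2 in the 24 libraries of the floxed lines, by virus and IL-1β (x axes), with a circle for replicate 1, a square for replicate 2 and a bar for their mean. With IL-1β, Sdhb stood at 55.8 to 65.5 CPM in GFP cells of every line and at 80.7 to 95.5 CPM in Cre cells of LDHA flox and NAMPT flox.

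In NFKBIZ flox the subunit genes were lower with IL-1β in Cre cells too, and here 1 library weighed on the result. Of 79 nuclear genes 46 fell with IL-1β in Cre cells and none rose, against 10.3% of all genes lower and 11.7% higher (median -0.42, all genes 0.00). Without Cre IL-1β replicate 2, the library low in mitochondrial RNA, 26 fell at 6.82% of all genes (median -0.28), and without Cre replicate 2 the count of the whole set went from 48 to 5. The mitochondrial genes had a median of -0.76 with 2 lower (mt-Co2 and mt-Co3), and of -0.23 with none lower when that IL-1β library was left out. Mt-Co1 shows the spread, with 5336 and 6940 CPM without and 5273 and 1447 CPM with IL-1β in Cre cells. Sdhb was at 119 and 129 CPM without and 76.8 and 79.4 CPM with IL-1β (-0.66 ± 0.09, adjusted p = 0.000385), 2 groups that did not overlap.

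Between Cre and GFP cells of NFKBIZ flox under IL-1β, 1 nuclear gene was higher and 11 lower, against 8.16% and 9.2% of all genes. Cox6b2 was higher at 11.4 and 11.0 against 5.66 and 4.96 CPM (1.06 ± 0.17, adjusted p = 0.000775). Cox4i2 was lower at 6.88 and 7.48 against 12.2 and 11.4 CPM (-0.73 ± 0.15, adjusted p = 0.00549), as were Atp5mpl (-0.75 ± 0.16, adjusted p = 0.00486) and Uqcr11, a small subunit of complex III (-0.42 ± 0.10, adjusted p = 0.0139). Without Cre IL-1β replicate 2, Cox6b2 (1.09), Cox4i2 (-0.79) and Atp5mpl (-0.66) remained called and Uqcr11 did not (-0.35, adjusted p = 0.055). The call of Uqcr11 was also lost without either GFP IL-1β library, and that of Cox4i2 without GFP IL-1β replicate 1. Without Cre IL-1β replicate 2, 1 was higher and 4 lower and the median of the nuclear genes went from -0.14 to -0.01. The 12 calls became 3 without GFP IL-1β replicate 1, 4 without GFP IL-1β replicate 2 and 47 without Cre IL-1β replicate 1, which leaves the library low in mitochondrial RNA alone in its group. The interaction passed for 2 genes, at 3.5% of all genes lower. Its median over the nuclear genes was -0.16, and -0.03 without Cre IL-1β replicate 2. Cox4i2 had -0.91 ± 0.21 (adjusted p = 0.0262) and Ndufv3, a small subunit of the NADH-binding part of complex I, -0.78 ± 0.17 (adjusted p = 0.0176), holding in 3 and 4 of 8 fits that left out 1 library. No gene of the set was called without GFP replicate 2, Cre replicate 2 or either GFP IL-1β library, and 37 were without Cre IL-1β replicate 1.

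The Cre effect, averaged over the states with and without IL-1β, was also compared between lines in the 24 floxed libraries. LDHA flox and NAMPT flox did not differ for any of 93 genes in edgeR, with 1 at an unadjusted p under 0.05 and 1 called by DESeq2 and by voom, at 0.705% of all genes, and 1 called without either NFKBIZ flox Cre IL-1β library. Against NFKBIZ flox, 8 nuclear genes had a higher Cre effect in LDHA flox (10.1% of all genes) and 9 in NAMPT flox (15.1%), and none a lower one (11.7% and 16.2% of all genes). These comparisons share the NFKBIZ flox libraries, which all lie in 1 library set, while LDHA flox and NAMPT flox have a replicate in each set. A Cre effect that differs between sets cannot be told apart here from a difference between lines. Cox6b2 differed by 0.86 ± 0.17 (adjusted p = 0.000589) for LDHA flox and 0.77 ± 0.17 (adjusted p = 0.00124) for NAMPT flox, Atp5k, the e subunit of ATP synthase, by 0.63 ± 0.15 (adjusted p = 0.00329) and 0.63 ± 0.15 (adjusted p = 0.00241), and Atp5mpl by 0.60 ± 0.14 (adjusted p = 0.00211) and 0.58 ± 0.14 (adjusted p = 0.00186). Without NFKBIZ flox Cre IL-1β replicate 1 the counts were 39 and 36. For LDHA flox the count was 16 without NFKBIZ flox Cre replicate 2, 14 without LDHA flox GFP replicate 2, 5 without LDHA flox Cre IL-1β replicate 1, and 4 without LDHA flox GFP replicate 1, LDHA flox GFP IL-1β replicate 1, NFKBIZ flox GFP replicate 1, NFKBIZ flox Cre replicate 1 or NFKBIZ flox GFP IL-1β replicate 2. For NAMPT flox it was 5 without NFKBIZ flox GFP replicate 1, 15 without its Cre replicate 2 and 19 without its Cre IL-1β replicate 2.

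In wild-type cells no subunit gene passed the test with FX11, IL-1β or both, nor did any gene at all (0% called in each). By edgeR the unadjusted p was under 0.05 for 0, 0 and 1 of 94 subunit genes and for 68, 153 and 860 of 15461 genes, and DESeq2 and voom called 0 subunit genes in each. Sdhb stood at 141 and 96.8 CPM untreated, 151 and 60.6 CPM with FX11, 73.6 and 101 CPM with IL-1β and 77.7 and 72.2 CPM with both. Replicate 2 of FX11 and replicate 2 of IL-1β are the libraries whose Mmp3 went against their labels, and Sdhb was low in the former and high in the latter. Atp5g1 was likewise low in the former and high in the latter. It stood at 164 and 101 CPM untreated, 158 and 92.4 with FX11, 85.7 and 125 with IL-1β and 92.6 and 103 CPM with both. In replicate 2 with both, Sdhb stood below its untreated level and Atp5g1 did not. Without these 2 libraries no subunit gene was called either, and the median log2 fold change of the nuclear genes with IL-1β was -0.24, against -0.08 with them.

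**Figure D5:**
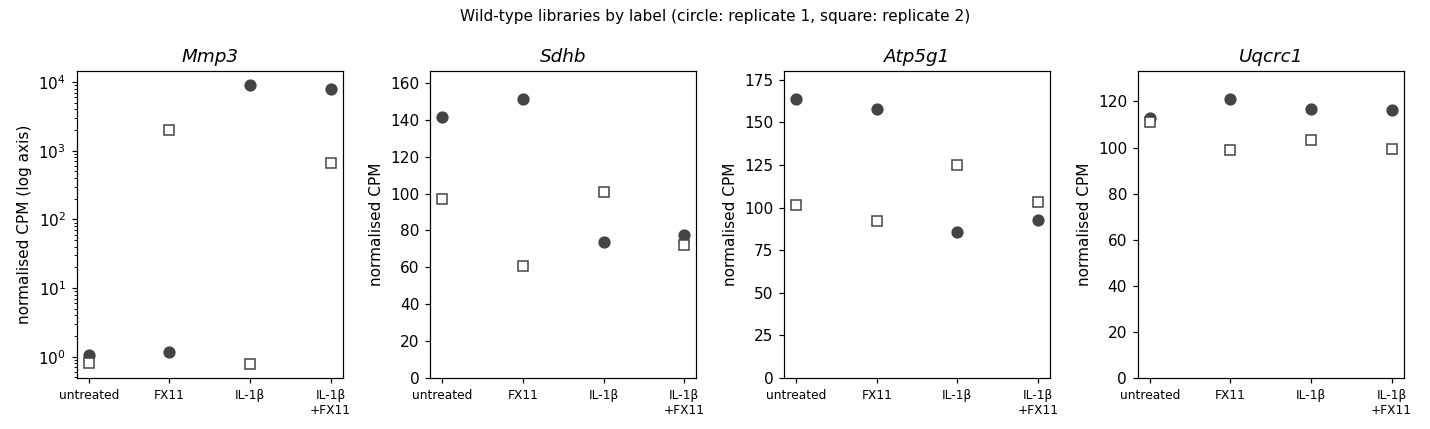
Level in CPM (y axes, logarithmic for Mmp3 and from 0 for the others) of Mmp3, Sdhb, Atp5g1 and Uqcrc1 in the 8 wild-type libraries by label (x axes), with a circle for replicate 1 and a square for replicate 2. Mmp3 was at 2016 CPM in the library labelled FX11 replicate 2 and at 0.784 CPM in that labelled IL-1β replicate 2, and Uqcrc1 lay between 99.0 and 121 CPM in all 8.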

How the data were processed

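The deposited files held raw read counts per gene beside CPM and RPKM columns, 1 file per library; counts were used, and the CPM and RPKM printed were computed from them. The authors' methods state that uniquely aligned, unambiguous reads were counted on an Ensembl release 76 assembly. The submitters' processing notes name bcl2fastq, STAR 2.0.4b, Subread, featureCounts 1.45 and GRCm38. Strand use is not given in the sources used here.

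Genes over 1 CPM in at least 1 library of a fit (5 in the GFP comparison over lines), other than ribosomal RNA genes, were tested by edgeR 4.0.16 quasi-likelihood tests after TMM scaling (R 4.3.3, Benjamini-Hochberg threshold 0.05). The GFP comparison over lines (12 libraries) had line and library set as terms. Each line was fitted by itself (8 libraries), as were the 8 wild-type libraries, in both cases without a set term. Lines were compared over 24 libraries with the set as a term. A library set is the style of numbering in the sample titles. The alternatives were RLE size factors, totals without mitochondrial genes, DESeq2 1.42.0, limma voom 3.58.1, no low-count filter, a replicate block or no set term, the 24-library fit, and each library left out. The comparison of IL-1β within Cre cells and the fits without both doubted wild-type libraries were added after seeing the data. The fits were tested on simulated counts. Depth ranged from 15830658 to 39959888 counts.

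Named genes were the mitochondrial genes, complex II, alternative isoforms, members the study names, the extremes of each complex, the 5 smallest adjusted p-values of each interaction or line difference, and the 3 nuclear genes highest in RPKM. Genes making up a count of 5 or fewer, such as Cox7c and Uqcrh, were named after their values were seen. The values of 1 gene are not reported here. Members and lists were chosen with earlier results of these data known. Of the listed symbols, Coa1 and Atp5if1 were not matched. Promoters came from RefSeq (GRCm38.p6).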

Additional observations from a re-analysis of the deposited data

Results flagged for a closer look

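These results are listed because the effect of a treatment differed between groups by a test of the difference itself, an interaction term in edgeR's quasi-likelihood fit. For the interaction of Cre and IL-1β in LDHA flox the number of genes called was 3 (3.26%, against 5.89% of all genes), namely Sdhb (0.56), Atp5g1 (0.51) and Uqcrc1 (0.39), the last of which held in 1 of 8 fits that left out 1 library. For NAMPT flox it was 16 (17.2% against 12%), among them Sdhb (0.80), Cox4i2 (0.89), Atp5g1 (0.74) and Uqcrc1 (0.49). For NFKBIZ flox it was 2 (2.17% against 3.5%), Cox4i2 (-0.91) and Ndufv3 (-0.78).

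The Cre effect was higher in LDHA flox than in NFKBIZ flox for 8 genes (8.6% against 10.1% of all genes), and the 5 with the smallest adjusted p were Cox6b2 (0.86), Cox7b (0.40), Uqcr11 (0.38), Atp5k (0.63) and Atp5mpl (0.60). It was higher in NAMPT flox than in NFKBIZ flox for 9 genes (9.68% against 15.1%), led in the same way by Cox6b2 (0.77), Uqcr11 (0.35), Atp5k (0.63), Uqcrc1 (0.33) and Atp5mpl (0.58).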

How the results depend on the processing

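The numbers of genes called stayed within 1.5 times in 120 of 151 counts recomputed under another setting, among them all those with RLE size factors or without mitochondrial genes in the totals. The GFP comparison gave 56 with a replicate block, 47 without the set term and 53 to 58 with 1 library left out. Without the low-count filter the counts were 24 for Cre with IL-1β in LDHA flox, 17 for IL-1β in NAMPT flox Cre, 1 and 32 for Cre without and with IL-1β in NFKBIZ flox, 22 for its interaction, and 1, 16 and 17 for the line differences (LDHA minus NAMPT, LDHA minus NFKBIZ, NAMPT minus NFKBIZ). In the 24-library fit they were 2, 23, 7 and 5 in LDHA flox (Cre without and with IL-1β, IL-1β in Cre, interaction), 3 in NAMPT flox for Cre without IL-1β, and 28, 23 and 6 in NFKBIZ flox (IL-1β in GFP, Cre with IL-1β, interaction). Voom gave 31 for IL-1β in NFKBIZ flox GFP and 1, 16 and 15 for the line differences, DESeq2 gave 1 for LDHA minus NAMPT, and the fit with no set term 4 for LDHA minus NFKBIZ.

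The replicate block, by library number, gave 34, 2, 38, 19 and 10 in LDHA flox (IL-1β in GFP, Cre without and with IL-1β, IL-1β in Cre, interaction), 67, 25, 38 and 45 in NAMPT flox (IL-1β in GFP, Cre without IL-1β, IL-1β in Cre, interaction) and 55 there for Cre with IL-1β. In NFKBIZ flox it gave 14, 0, 8, 39 and 2, and in wild type 0. In LDHA flox, NAMPT flox and wild type the number is also the library set, and in NFKBIZ flox it is the order in the sample list. The labels do not say what a number marks. Deviations of same-numbered libraries correlated at 0.33 to 0.55 in LDHA flox, 0.35 to 0.46 in NAMPT flox, -0.25 to 0.10 in NFKBIZ flox and -0.18 to 0.72 in wild type, over 14912 genes and 6 pairs of groups each.

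With 1 library left out, counts ranged as follows, in the order IL-1β in GFP, Cre without IL-1β, Cre with IL-1β, IL-1β in Cre and interaction: 2 to 13, 0 to 1, 6 to 19, 0 to 6 and 0 to 4 in LDHA flox; 24 to 41, 2 to 4, 21 to 38, 5 to 12 and 7 to 20 in NAMPT flox; 3 to 32, 0 to 0, 3 to 47, 5 to 68 and 0 to 37 in NFKBIZ flox. In wild type they were 0, and for the line differences 0 to 1, 4 to 39 and 5 to 36. The fold changes that reversed did so without NFKBIZ flox Cre IL-1β replicate 1 and were uncalled in full: mt-Cytb (-0.40 to 0.57) and mt-Co1 (-0.43 to 0.50) for LDHA minus NFKBIZ, and mt-Nd2 (-0.37 to 0.67), mt-Cytb (-0.37 to 0.61) and mt-Co1 (-0.46 to 0.47) for NAMPT minus NFKBIZ. The cause was not tested.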
